A study of Mus musculus with 4 samples.

Results

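Podocytes are the epithelial cells that wrap the capillaries of the kidney glomerulus. Their interdigitating foot processes are joined by the slit diaphragm, a cell junction that is anchored to the actin cytoskeleton and filters the blood. The transcription factor Wt1 acts both in podocytes and in somatic cells of the gonad, and several podocyte genes are also used outside the kidney. In this expression analysis 8 genes of the slit diaphragm and foot process were followed in the fetal ovary, namely Ptpro, Nphs1, Podxl, Magi2, Synpo, Cd2ap, Kirrel and Actn4. They were taken by name from the 34682 genes of the count table, where all 8 were found. Of these, 7 were among the 15442 genes with enough reads to be tested, and Nphs1 was not.

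Mouse ovaries were sampled at E13.5 (embryonic day), and of the 4 RNA libraries 2 were made from mutants that overexpress Sall1 and 2 from wild-type controls. The mutants carry a BAC, a large cloned genomic insert, in which the Sall1 coding sequence is placed under the promoter and regulatory elements of Wt1, and it was integrated by piggyBac transposition into female embryonic stem cells used for morula aggregation. The stem cells had either a C57BL/6J background or that of a hybrid, C57BL/6J-129. The controls are described as littermates and, elsewhere in the methods, as CD1 mice, while the names of their count columns contain B6, so strain and genotype cannot be told apart. How many ovaries went into a library, and whether the mutants derive from 1 stem cell clone, is not given in the sources used here.

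Library totals lay between 11036313 and 17869840 counts. Sall1 was 7.24-fold higher in the mutant libraries, with 104 ± 11.8 CPM (reads of a gene scaled by library size; SD, n = 2) against 14.4 ± 2.53 CPM (SD, n = 2). Wt1 had 317 ± 34.3 CPM in mutant against 309 ± 0.0341 CPM in wild-type ovaries (SD, n = 2 each). Nphs1, the most podocyte-restricted transcript of the set, had at most 13 counts in a library, where 3 counts, or between 0.170 and 0.272 CPM, were taken as the floor. The 8 genes are therefore described as genes known from podocytes and not as markers of podocytes in these samples.

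Of the 7 genes tested, 1 passed the threshold, an adjusted p under 0.05 in edgeR (quasi-likelihood test, Benjamini-Hochberg over all genes tested). This was Ptpro, which fell 2.69-fold in the mutant ovaries. Across all genes tested, 0.0583% passed in either direction and 0.0453% passed as lower in the mutants. Synpo was lower and Magi2 higher in both mutant libraries than in either wild-type library, by 1.49-fold and 1.48-fold, but neither passed. The remaining genes, Podxl, Actn4, Cd2ap and Kirrel, were the most abundant of the set and their groups overlapped. For 3 of the 7 genes both mutant libraries lay on the same side of the wild-type range, above or below, against 30.9% of all genes tested. For any 1 gene the smallest two-sided p that exact permutation of these 4 libraries allows is 0.333, so the tests used a model that pools the spread over genes. Because the labels do not say that the libraries come from separate animals, the p-values measure only the spread between these libraries, which may be technical.

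**Figure D1:**
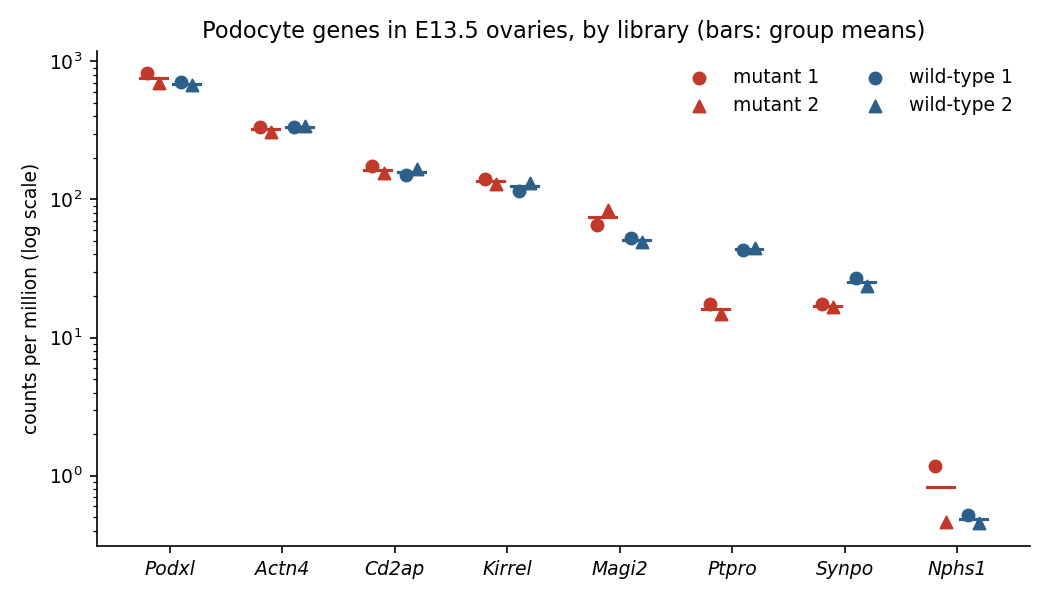
CPM (log scale) of the 8 genes in each of the 4 libraries, ordered by the wild-type mean. Red points are mutant and blue points wild-type libraries, circles are replicate 1 and triangles replicate 2, and horizontal bars are group means. Ptpro and Synpo are lower and Magi2 higher in both mutant libraries, and Nphs1 lies near 1 CPM or below.

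The level per length was compared between the genes as RPKM (CPM per kilobase of exon), since longer transcripts collect more reads. In wild-type ovaries Podxl was at 125 ± 4.20 RPKM (SD, n = 2), followed by Actn4 at 66.8 ± 0.828, Cd2ap at 29.2 ± 1.91 and Kirrel at 16.6 ± 1.62 (SD, n = 2 each). Ptpro came next with 6.37 ± 0.135 RPKM, then Magi2 with 5.74 ± 0.255 and Synpo with 2.66 ± 0.226 (SD, n = 2 each). Nphs1 was at 0.0925 ± 0.00934 RPKM (SD, n = 2). The step between Ptpro and Magi2 was small, and their order was turned by the use of the longest transcript in place of all exons. In mutant ovaries the order was the same except that Magi2, at 8.48 ± 1.57 RPKM (SD, n = 2), stood above Ptpro, at 2.37 ± 0.287 RPKM (SD, n = 2). Ptpro and Synpo, at 1.79 ± 0.0596 RPKM (SD, n = 2), were then neighbors.

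Ptpro encodes a receptor-type protein tyrosine phosphatase, known in the kidney as glomerular epithelial protein of the apical foot process membrane. On NCBIM37 (mm9), GENCODE M1 places it as a protein-coding gene on the plus strand of chromosome 6, from 137200820 to 137413150. Its longest transcript has 27 exons, and no exon of another gene overlaps them. The 250 bases before its transcription start are shown because Ptpro carries the clearest difference of the set (chr6:137200570-137200819, NCBIM37, plus strand, written 5′ to 3′; RefSeq start, placed by exact match):
Ptpro promoter: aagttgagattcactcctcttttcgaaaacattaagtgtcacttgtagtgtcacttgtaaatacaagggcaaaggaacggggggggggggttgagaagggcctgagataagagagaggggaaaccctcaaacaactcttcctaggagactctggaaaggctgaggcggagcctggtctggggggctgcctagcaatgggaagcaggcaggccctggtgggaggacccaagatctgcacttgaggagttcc
No letters are in capitals here because none of 6 motifs, searched on both strands, occurred in this window. The motifs were GCGTGGG as well as GCGGGGG for the zinc fingers of Wt1 and its Egr relatives, the A/T-rich word ATATT for Sall proteins, the GC box GGGCGG, the word CCAAT, and the TATA word TATAAA. They occur in 4.30%, 9.63%, 23.3%, 32.7%, 33.8% and 12.4% of the 32851 RefSeq windows of this length, in this order. A window without these letters is a description of 250 bases and says nothing of binding.

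Mutant libraries 1 and 2 held 194 and 223 counts of Ptpro, against 739 and 781 in wild-type libraries 1 and 2. These correspond to 17.6 and 14.8 CPM in mutant against 43.0 and 44.3 CPM in wild-type ovaries. The groups were far apart, and the gap between them was larger than the difference between the libraries of either group. The log2 fold change was -1.43 (standard error 0.13, 95% interval -1.75 to -1.11), and edgeR's adjusted p was 0.0416 (rank 5 by p among all genes tested). The fold change hardly moved when a library was left out, ranging from -1.56 to -1.31, but the call ended without either wild-type library, with adjusted p-values of 0.0810 and 0.0860 in edgeR's test. In bulk tissue, fewer cells of a type and less RNA per cell cannot be told apart.

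The tested relatives of Ptpro did not pass the test. Among the other R3 receptor phosphatases, Ptprj had the highest level per length, with 54.7 ± 1.75 CPM in mutant against 58.4 ± 1.10 CPM in wild-type ovaries (SD, n = 2 each). Its log2 fold change was -0.09 (standard error 0.10). Ptprb, an endothelial phosphatase, had a log2 fold change of 0.08 (standard error 0.16), and Ptprh and Ptprq had at most 4 counts in any library. Whether these fold changes differ from that of Ptpro was not tested.

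Among the 5 genes whose centred log2 CPM lay closest to that of Ptpro over the 4 libraries were Hpgd, Plxnc1, Ildr2 and mKIAA0173. Their root mean square distances from Ptpro were 0.043, 0.053, 0.073 and 0.093 on the log2 scale. Hpgd, the enzyme that inactivates prostaglandins, had 6.31 ± 0.834 CPM in mutant against 17.8 ± 0.360 CPM in wild-type ovaries (SD, n = 2 each). Plxnc1, a semaphorin receptor, had 31.1 ± 4.24 CPM in mutant against 78.6 ± 1.49 CPM in wild-type ovaries (SD, n = 2 each). mKIAA0173 rested on few reads, with at most 14 counts in a library. Over only 4 libraries many genes take a similar course, and the likeness is a description.

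Magi2 is a membrane-associated scaffold with several PDZ domains that binds nephrin at the slit diaphragm. It lies on the plus strand of chromosome 5, from 18732864 to 20210616 (NCBIM37), and GENCODE M1 holds further short gene models under the same symbol within or next to this interval. RefSeq gives it a pair of starts, whose windows of 250 bases are shown because Magi2 has the highest log2 fold change of the 7 genes tested. The first is at chr5:18732614-18732863 and the second at chr5:19413086-19413335 (NCBIM37, plus strand), with motif matches in capitals:
Magi2 promoter, first start: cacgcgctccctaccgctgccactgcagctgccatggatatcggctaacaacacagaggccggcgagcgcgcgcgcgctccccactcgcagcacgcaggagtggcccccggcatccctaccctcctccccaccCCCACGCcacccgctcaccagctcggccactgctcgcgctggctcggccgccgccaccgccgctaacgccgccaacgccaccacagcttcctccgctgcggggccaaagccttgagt
Magi2 promoter, second start: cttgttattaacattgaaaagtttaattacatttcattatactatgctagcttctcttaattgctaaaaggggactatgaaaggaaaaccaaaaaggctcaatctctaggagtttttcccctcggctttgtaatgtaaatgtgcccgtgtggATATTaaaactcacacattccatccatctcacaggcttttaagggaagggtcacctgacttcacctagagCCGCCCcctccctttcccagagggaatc
The capitals in the first window, which is 72.0% G and C, mark the Wt1 and Egr word GCGTGGG read on the minus strand, 117 bases before the start. In the second, 41.2% G and C, they mark ATATT 98 bases and the GC box, on the minus strand, 28 bases before the start. GCGTGGG also occurred, on the minus strand, 99 bases before the start of Actn4, whose log2 fold change was -0.064. The window of Actn4 also held the GC box. The related word GCGGGGG occurred on the minus strand 36 bases before the start of Cd2ap, at 0.055. None of the motifs occurred in the windows of Nphs1 and Kirrel. Windows were at hand for 6 of the 8 genes, and Podxl and Synpo were not searched. A link between the motifs and the fold changes was not tested. Gene counts do not say which start was used.

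For Magi2 the mutant libraries held 716 and 1271 counts, against 898 and 865 for wild type, or 65.0 and 84.5 CPM against 52.2 and 49.0 CPM. Both mutant libraries were above the wild-type ones, and mutant replicate 2 was the highest. The log2 fold change was 0.56 (standard error 0.14, 95% interval 0.22 to 0.91), and edgeR's adjusted p was 0.459. Its size depended on the mutant library used: it was 0.74 without mutant replicate 1, which passed (adjusted p = 0.0271, edgeR), and 0.36 without mutant replicate 2 (adjusted p = 0.602, edgeR). The paralogue Magi1 had 129 ± 3.22 CPM in mutant against 130 ± 7.25 CPM in wild-type ovaries (SD, n = 2 each).

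Synpo encodes synaptopodin, an actin-associated protein of foot processes and of dendritic spines. It lies on chromosome 18, minus strand, from 60753627 to 60819796 (NCBIM37). It had 17.4 and 16.6 CPM in the mutant libraries and 26.9 and 23.8 CPM in the wild-type libraries, and the groups did not overlap. The log2 fold change was -0.57 (standard error 0.14, 95% interval -0.90 to -0.25), and edgeR's adjusted p was 0.397. Of its paralogues, Synpo2 had the higher level per length, and its groups overlapped. Synpo2l, a gene of heart and skeletal muscle, had 5.81 CPM in wild-type replicate 1 and between 0.332 and 1.91 CPM in the other libraries.

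The other tested genes of the slit diaphragm, Kirrel and Cd2ap, overlapped between the groups. Kirrel (Neph1), an immunoglobulin-superfamily protein that binds nephrin, had 135.5 ± 7.66 CPM in mutant against 124 ± 12.1 CPM in wild-type ovaries (SD, n = 2 each). Its log2 fold change of 0.13 had a 95% interval from -0.13 to 0.38. Cd2ap, the adaptor that links nephrin to the actin cytoskeleton, had 163.8 ± 13.46 CPM against 157.5 ± 10.32 CPM (SD, n = 2 each), and its log2 fold change of 0.055 had an interval from -0.19 to 0.30. Kirrel lies on chromosome 3 from 86882515 to 86978669 and Cd2ap on chromosome 17 from 42929900 to 43013373 (NCBIM37), both on the minus strand.

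Nphs1 (nephrin), the adhesion protein at the core of the slit diaphragm, was counted 13 and 7 times in mutant and 9 and 8 times in wild-type libraries. These are 1.18, 0.465, 0.523 and 0.453 CPM, above the floor in each library but too few for the test. The highest and the second lowest value were both from mutant ovaries. DESeq2, run without edgeR's filter on low counts, gave a log2 fold change of 0.73 (standard error 1.15) and no adjusted p. The gene lies on chromosome 7 from 31243334 to 31272242 (NCBIM37), and 597 of its exonic bases are shared with Nphs1as on the opposite strand. Since the handling of strands in the counting is not given, reads from the gene and its antisense partner cannot be told apart.

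Podxl (podocalyxin), a sialomucin of the apical podocyte surface that is also found on vessels and other epithelia, was the most abundant of the set. It had 820 and 696 CPM in the mutant libraries and 703 and 670 CPM in the wild-type libraries, and mutant replicate 2 fell between the wild-type values. Its log2 fold change of 0.14 had a 95% interval from -0.11 to 0.39. Actn4, the actin cross-linker alpha-actinin-4, had 321 ± 19.5 CPM in mutant against 336 ± 4.16 CPM in wild-type ovaries (SD, n = 2 each), and its log2 fold change of -0.064 had an interval from -0.28 to 0.15. It shares 338 exonic bases with Capn12 on the opposite strand. Podxl lies on chromosome 6 from 31469488 to 31513981 and Actn4 on chromosome 7 from 29678267 to 29747359 (NCBIM37), both on the minus strand. For these genes and for Kirrel and Cd2ap, every interval excludes a change as large as that of Ptpro.

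**Figure D2:**
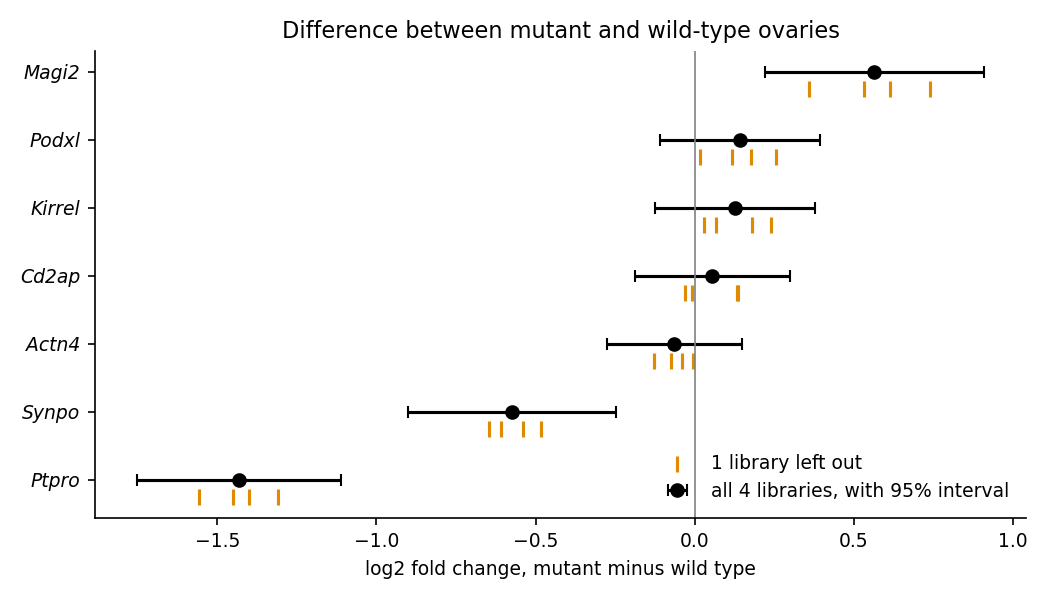
Log2 fold change, mutant minus wild type, of the 7 genes tested. Black points with bars are the estimates from all 4 libraries with their 95% intervals, and orange ticks the estimates with 1 library left out. The interval of Ptpro lies between -1.75 and -1.11, those of Synpo and Magi2 exclude 0 on opposite sides before adjustment, and the other 4 include 0.

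Mutant and wild-type libraries that share a replicate number have adjacent library numbers in the count table, and differences within each number were therefore computed. For Ptpro the log2 difference was -1.28 between the libraries numbered 1 and -1.57 between those numbered 2. For Synpo it was -0.62 and -0.51, and for Magi2 0.32 and 0.78. One sign in both numbers follows for these 3 genes from groups that do not overlap, and only the sizes are informative. Podxl was at 0.22 and 0.053, Kirrel at 0.29 and -0.028, Cd2ap at 0.21 and -0.095, and Actn4 at 0.010 and -0.14, so that 3 of these 4 changed sign. When the replicate number was added to the model as a term, 3 of the 7 genes passed, against 2.49% of all genes tested. These were Ptpro (adjusted p = 9.58e-06), Magi2 (adjusted p = 0.0141) and Synpo (adjusted p = 0.0307, all in edgeR's test). DESeq2, the tool named by the authors, called Ptpro alone (adjusted p = 1.73e-09) without this term, against 0.714% of genes with an adjusted p. These shares do not test the set either, since the genes were chosen with earlier results of these data known.

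A further 95 genes were followed in 6 lists, 5 of them genes with known roles in podocytes and 1 of paralogues of the 8 genes, which also holds genes of muscle and vessels. Some genes are in more than 1 list, and 89 were tested. None passed the threshold in edgeR's test without the replicate term. In DESeq2 4 passed (Cdkn1c, Dach1, Mme and Tcf21), against 0.714% of all genes with an adjusted p. With the replicate term 7 passed in edgeR's test, against 2.49% of all genes tested. These 7 were all lower in the mutants, namely the 4 called by DESeq2 with Palld, Plat and Trpc6. At an unadjusted p under 0.05, 12 of the 89 genes stood out, 11 of them lower and 1 higher, against 5.69% of all genes tested in either direction and 2.73% lower. For 24 of the 89 both mutant libraries were below the wild-type ones, against 15.1% of all genes tested, and for 12 both were above, against 15.8%. The median log2 fold change of the 89 genes was -0.050, compared with -0.00088 for all genes tested. All lists were chosen with earlier results of these data known, so these shares and medians describe the lists and do not test them.

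**Figure D3:**
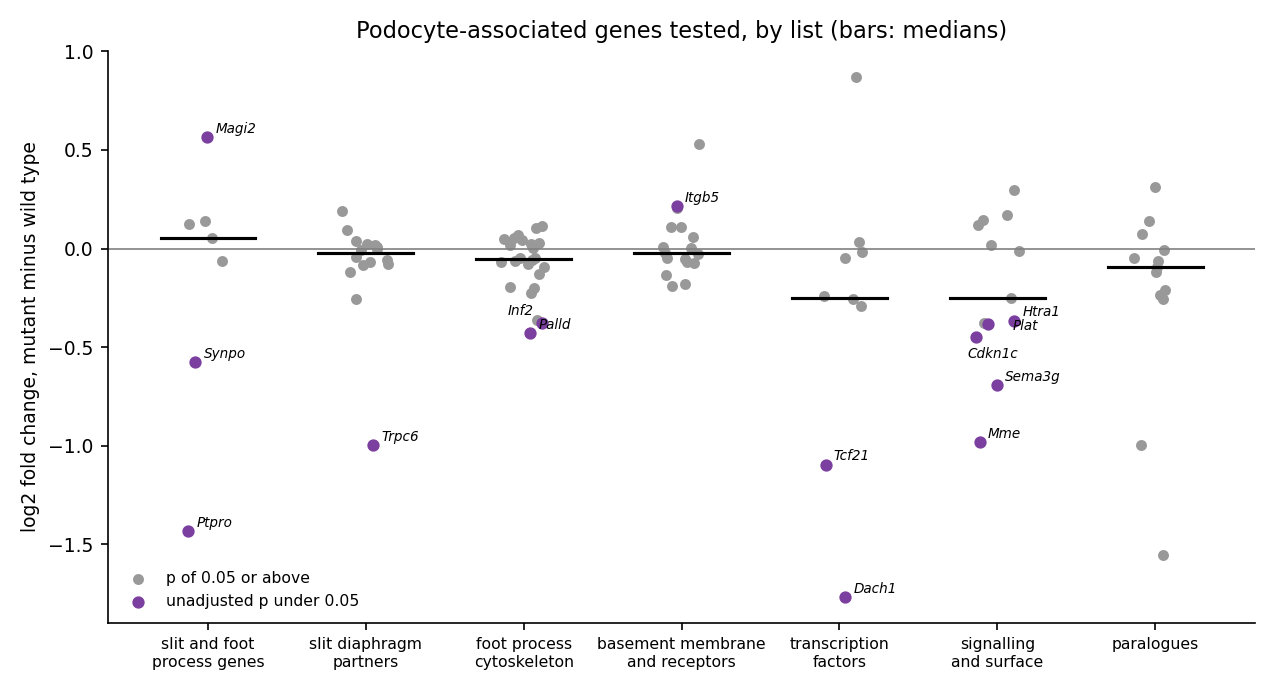
Log2 fold change, mutant minus wild type, of the tested genes of each list, with horizontal bars at the medians. Purple points have an unadjusted p under 0.05 in edgeR's test and are named, and grey points do not. The purple points lie below 0 except for Magi2 and Itgb5, and 1 transcription factor is not drawn but counted in its list's median.

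Of 10 podocyte transcription factors, all tested, 3 were lower at an unadjusted p under 0.05, against 2.73% of all genes tested. The list's median was -0.25. Tcf21, a bHLH factor of podocytes and stromal mesenchyme, had 25.6 ± 3.37 CPM in mutant against 54.7 ± 4.19 CPM in wild-type ovaries (SD, n = 2 each). Its log2 fold change of -1.10 (standard error 0.14) had an adjusted p of 0.0811 in edgeR's test, and Tcf21 was among the 4 genes that passed in DESeq2. Dach1, a transcriptional repressor, had 3.37 ± 1.01 CPM in mutant against 11.4 ± 0.853 CPM in wild-type ovaries (SD, n = 2 each) (log2 fold change -1.77, standard error 0.27). In the other direction, Lmx1b, a LIM homeodomain factor with between 11 and 21 counts in a library, was at 0.87 (standard error 0.44), with both mutant libraries above the wild-type ones. Wt1 itself, at 0.03 (standard error 0.10), did not differ beyond its spread.

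Of 13 tested signaling and surface genes, 5 were lower at an unadjusted p under 0.05, against 2.73% of all genes tested. The list's median was -0.25. Mme (neprilysin, a surface peptidase) had 42.8 ± 10.6 CPM in mutant against 84.2 ± 13.8 CPM in wild-type ovaries (SD, n = 2 each). Cdkn1c (p57, a cell cycle inhibitor) had a log2 fold change of -0.45 (standard error 0.10), and Plat (tissue plasminogen activator) one of -0.38 (standard error 0.10). Sema3g, a secreted semaphorin, and Htra1, a secreted serine protease, were at -0.69 and -0.37.

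The partners at the slit diaphragm stayed close to 0, with a median of -0.025 over 16 tested genes. The exception was Trpc6, a cation channel at the slit diaphragm, which had 3.54 and 4.05 CPM in the mutant libraries and 7.26 and 7.93 CPM in the wild-type libraries (log2 fold change -0.996, standard error 0.24, adjusted p = 0.425 in edgeR's test without the replicate term). Iqgap1 and Sh3kbp1, next by p in this list, were at 0.19 and -0.25. Of 24 foot process cytoskeleton genes, with a median of -0.054, the actin-associated Palld and the formin Inf2 were lower at an unadjusted p under 0.05, at -0.43 and -0.38, and Arhgap24 was at -0.37. Of 17 genes for the basement membrane and its receptors, with a median of -0.022, Itgb5 was the 1 higher at an unadjusted p under 0.05, at 0.22. Col4a4 and Cd151 were at 0.53 and 0.21. Of 13 tested paralogues, with a median of -0.093, 0 passed and 0 reached an unadjusted p under 0.05 in edgeR's test. The most abundant relatives of Podxl, Kirrel and Actn4, namely Cd34, Kirrel3 and Actn1, were at -0.048, -0.12 and -0.062. The muscle actinin Actn2 had 20.7 CPM in wild-type replicate 1 and between 5.21 and 6.53 CPM elsewhere, and that library also had the highest sum of skeletal muscle markers, 245 CPM, against 40.6 to 77.2 CPM in the others.

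**Figure D4:**
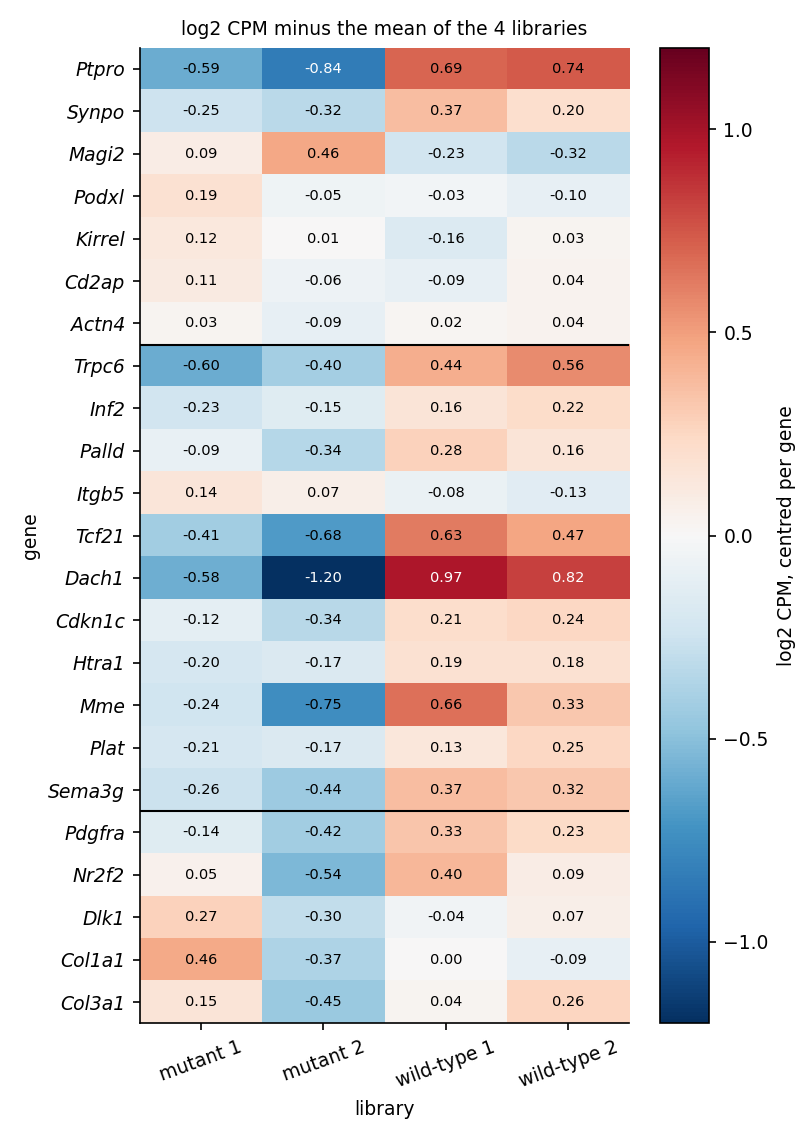
Log2 CPM of each gene minus its mean over the 4 libraries, printed in each cell, for the 7 tested slit diaphragm and foot process genes (top), 11 of the 12 further podocyte genes with an unadjusted p under 0.05 (middle) and 5 further stromal markers (bottom). Ptpro, Synpo and 10 of these 11 genes are below their mean in both mutant libraries, as is Pdgfra, while Magi2 and Itgb5 are above it.

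The level of markers for other cell types in the dissected ovaries was set beside these results. Of 8 stromal markers, 4 were lower at an unadjusted p under 0.05 (Pdgfra and Tcf21 among them), against 2.73% of all genes tested. For 5 both mutant libraries were below the wild-type ones, against 15.1% of all genes tested. The median log2 fold change of the 8 markers was -0.51. Col1a1, Col3a1 and Dlk1 overlapped between the groups, at 0.15, -0.27 and 0.00058. Tcf21 belongs to this list as well as to the podocyte transcription factors. The summed level of the 8 genes was 1346 and 2058 CPM in the mutant libraries and 1917 to 2025 CPM in the wild-type libraries, most of it from the collagens Col1a1 and Col3a1, and none of the 8 was at 0 in any library. Their part in the lower level of Ptpro, Synpo and the transcription factors was not tested. The podocyte marker list had 5 tested genes, of which Ptpro, Synpo and Podxl are among the 8 genes described above, so its 1 call (Ptpro) and its median of -0.57 (Synpo) restate their values. The other 8 marker lists held 0 calls in edgeR's test. Their medians were -1.396 for skeletal muscle, -0.37 for erythroid, -0.0062 for endothelial, -0.11 for surface epithelial, 0.029 for germ cell, 0.038 for pre-granulosa, -0.12 for Sertoli and -0.00024 for mesonephric markers. Summed mesonephric markers had 176 and 193 CPM in mutant and 166 to 194 CPM in wild-type ovaries. Most of this was Emx2, with 138 and 141 CPM in the mutant libraries and 129 and 152 CPM in the wild-type libraries, so the sum says little of the other markers. Both mutant libraries were above the wild-type ones for 1 tested marker of this list and below them for 1. In 2 lists, genes with an unadjusted p under 0.05 in edgeR's test lay on opposite sides of 0. Of the pre-granulosa markers Bmp2 was at -0.80, while Foxl2 was at 0.59 and Irx3 at 0.34. Of the surface epithelial markers Upk3b was at -0.72, while Lgr5 was at 0.61 and Aldh1a1 at 0.46. In the other lists the genes with the smallest p included Kdr at -0.46 (endothelial), Kit at 0.19 (germ cell), Ptgds at 1.75 (Sertoli) and Pax8 at 0.80 (mesonephric), all as log2 fold changes. Kit did not reach an unadjusted p under 0.05 in edgeR's test, and Ptgds had between 20 and 67 counts in a library. Each of these lists had genes on both sides of 0. The ranges were -0.46 to 0.17 (endothelial), -0.23 to 0.19 (germ cell), -0.34 to 1.75 (Sertoli) and -0.51 to 1.10 (mesonephric). The muscle gene Myh3, at -3.88, rests on wild-type replicate 1, with 1577 counts there against 21 to 58 in the other libraries; the same library was the highest for Actc1, Acta1, Myog and Myl1.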

How the data were processed

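The authors aligned the reads with STAR 2.6.1d, per the labels to mm9, and deposited raw counts per gene, made with summarizeOverlaps, for each library. The annotation and the handling of strands are not given in the sources used here. Counts of 34682 genes were tested in R 4.3.3 with edgeR 4.0.16 (TMM, filterByExpr, quasi-likelihood F-test, genotype as the only factor, Benjamini-Hochberg over 15442 genes, adjusted p under 0.05). Standard errors were the size of the log2 fold change over the square root of F. CPM are counts scaled by the effective library size, and RPKM divide them by the union of exons in GENCODE M1. Alternatives were DESeq2 1.42.0 with default settings, the likelihood ratio test, RLE and upper-quartile factors, no filter, a minimum of 10 counts in all libraries, the replicate number as a block, and each library left out. Libraries of the same number deviated together from the group means (correlation 0.481 across genes), but the labels do not say what the number marks. The fits were tested on simulated data. The 8 genes and all lists were chosen with earlier results of these data known. Named are the 8 genes, the 3 genes with the smallest p of each podocyte list, the most abundant paralogue of each gene, the podocyte markers, the gene with the smallest p of each other marker list, the 5 genes most like Ptpro, Sall1 and Wt1. Named after their values were seen are Pdgfra, Sema3g, Htra1, Ptprb, Ptprh, Ptprq, Col1a1, Col3a1, Dlk1, Lmx1b, Foxl2, Irx3, Upk3b, Aldh1a1, Emx2, Actc1, Acta1, Myog and Myl1. Some genes that the rule names are not reported here. Floors cover counting error only.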

Additional observations from a re-analysis of the deposited data

How the results depend on the processing

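The direction of Ptpro held under all 11 alternatives, and it passed in 9 of them. With each library left out, which leaves a group of 1 library assumed to vary like the other group, its log2 fold change ranged from -1.56 to -1.31, and it did not pass without either wild-type library (adjusted p = 0.0810 and 0.0860, edgeR). The number of the 8 genes that passed was 1, and 3 with the replicate block, and from 0 to 2 with each library left out; the other alternatives called Ptpro alone. Cd2ap, at 0.055, ranged from -0.032 (without mutant replicate 1) to 0.14 (without mutant replicate 2) and was also reversed, at -0.0096, without wild-type replicate 1. The number of all genes called, 9, became 105 with DESeq2, 134 with the likelihood ratio test, 28 with no filter, 19 with at least 10 counts in every library, 385 with the replicate block, and from 4 to 130 with each library left out. The number of further podocyte genes called, 0 in edgeR's test (12 at an unadjusted p under 0.05), became 4 with DESeq2 (Cdkn1c, Dach1, Mme and Tcf21), 3 with the likelihood ratio test, 1 (Tcf21) with no filter and with at least 10 counts in every library, 7 with the replicate block (the genes called by DESeq2 with Palld, Plat and Trpc6), all lower in the mutants, and from 0 to 4 with each library left out. With the block the dispersion common to all genes was 0.00639, against 0.0210 without it, and the fit leaves 1 residual degree of freedom per gene. The cause of these differences between settings was not tested. Nphs1 had at most 13 counts in a library and was left out by the filter.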
